A study of Bos taurus with 12 samples.

Results

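Blood RNA of 12 Holstein cows, all female and all bled on day 7 after calving, was compared between cows that gave more and cows that gave less milk later on. The cows were chosen by a measured value, the milk production deposited for 30 days after calving. The 6 cows with a value of 37 or more formed the high milk group and the 6 cows under 37 formed the low milk group, so that all 12 cows of the series entered the comparison. The high milk group held 4 cows given a mineral supplementation (supplemented cows 1, 2, 3 and 5) and 2 unsupplemented controls (control cows 5 and 6). The low milk group held 2 supplemented cows (4 and 6) and 4 controls (1, 2, 3 and 4). The supplement was a parenteral trace element product, given around calving according to the series title; its elements, dose and day are not stated in the sources used. Because the 2 treatments were spread unevenly over the milk groups, treatment was a term in the models of the genes, apart from an alternative that left it out.

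The milk value chose the groups and is therefore given as a description, without a test. High milk cows had values of 37, 41, 45 and 37 (supplemented) and 39 and 42 (control), with a mean of 40.2 ± 3.13 (SD, n = 6). Low milk cows had values of 32 and 34 (supplemented) and 31, 32, 32 and 35 (control), with a mean of 32.7 ± 1.51 (SD, n = 6). The cows just inside the high group were supplemented cows 1 and 5, both at 37, and those just outside it were control cow 4 at 35 and supplemented cow 6 at 34. The unit of milk is not stated in the file. The blood was taken before the milk value was recorded, and each cow gave 1 library.

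In the first weeks after calving a dairy cow needs more energy for milk than she eats. She mobilises body fat, and growth hormone, insulin and glucocorticoid signalling shift to direct nutrients to the udder. In the same period circulating leukocytes change in number and activity: neutrophils leave the marrow and enter tissue, and lymphocyte responses are dampened. Leukocyte RNA therefore reads both the mix of blood cells and the state of each cell, and in bulk blood fewer cells of a type cannot be told apart from less RNA per cell.

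The libraries held 6778640 to 16851541 counts over 27429 genes, and 11990 genes with a mean count of at least 10 were tested. The pan-leukocyte gene PTPRC was at 1318 to 2421 CPM (counts scaled to library size) in every library, the haemoglobin gene HBB reached at most 239 CPM (haemoglobin RNA had been depleted), and the milk protein genes CSN2 and LALBA had no count. The labels call the samples white blood cells. Of 10 library measures (depth, genes with a count, base quality, share of the top genes and the first 3 principal components among them), 0 differed between the milk groups by an exact two-sided permutation test (lowest adjusted p = 0.814), and 0 had p below 0.05 before adjustment. The first principal component held 56.6% of the variance. Supplemented cow 6, a low milk cow, stood at its upper end (113.2) and was also the highest on the second component. Supplemented cow 2 and control cows 4 and 5 were at 62.3, 54.1 and 63.6 on the first component, and every other cow was negative. These cows came from both milk groups. Their B cell marker scores (mean log2 CPM) were 5.27 to 6.57, against 7.63 to 8.11 in the others. Their monocyte marker scores were 7.38 to 7.98, against 4.85 to 6.60. Control cow 5, a high milk cow, had the highest TNF and IL1B. Values that moved most when either library was left out are also given without it.

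No gene passed the test between high and low milk cows. With edgeR's quasi-likelihood test, 0 of 11990 genes (0%) passed an adjusted p of 0.05, with 0.954 as the lowest adjusted p. Without adjustment, 512 genes (4.27%) had p below 0.05, where a flat distribution of p would hold 600: 224 were higher (1.87%) and 288 lower (2.4%) in high milk cows. limma-voom also called 0 genes (484 with p below 0.05 before adjustment). DESeq2 called 5, ZFP36L2, USP12, SLC43A3, CATHL4 and ENSBTAG00000052092, and had 708 with p below 0.05 before adjustment. CATHL4 had 482 counts in supplemented cow 6, 1 in control cow 1 and 0 in every other cow, high milk cows included. ENSBTAG00000052092 had at most 25 counts in high milk cows, against 633 in supplemented cow 6 and at most 105 in the other low milk cows. SLC43A3 had 0 to 23 counts in high milk cows and 19 to 156 in low milk cows, with supplemented cow 6 highest. The median log2 fold change over all genes was 0.02, and 53.9% of genes (6468) were positive. The median standard error of a log2 fold change was 0.27.

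**Figure D1:**
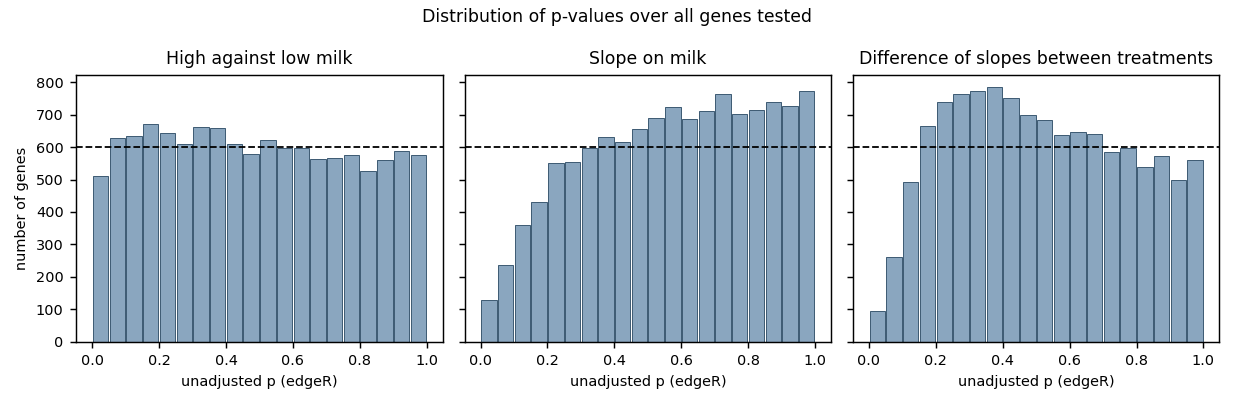
Histograms of unadjusted edgeR p-values over the 11990 genes tested, for the fold change between milk groups, the slope on milk and the difference of slopes between treatments; the dashed line marks 600 genes for each bar, a flat distribution. The lowest bar holds 512, 127 and 95 genes, under the line in each panel.

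ZFP36L2, an RNA-binding zinc finger protein that binds AU-rich elements and promotes decay of the transcripts that carry them, had the lowest p in the comparison. Its lowest, median and highest values were 876, 926 and 1188 CPM in high milk cows, against 510.4, 594 and 669.6 CPM in low milk cows. The groups did not overlap: the lowest high milk cow, supplemented cow 2, lay above the highest low milk cow, control cow 3. It averaged 987 ± 134 CPM in high milk cows and 588 ± 70.1 CPM in low milk cows (SD, n = 6 each). The log2 fold change was 0.78 ± 0.14 in edgeR, with an unadjusted p of 1.65e-04 and an adjusted p of 0.954. It was 0.77 within supplemented cows and 0.78 within control cows, and ranged over 0.72 to 0.82 when each cow was left out in turn. DESeq2 gave 0.76 ± 0.14 with an adjusted p of 4.6e-04, and in the other 24 alternatives run it did not pass. In libraries made with the first of 2 index sequences the difference was 0.83, and with the second 0.57.

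Across all genes tested, 11 had values that did not overlap between the groups (0.0917%), 8 with all high milk cows above all low milk cows (0.0667%) and 3 below (0.025%). Besides ZFP36L2, the genes above were DND1, IPPK, RNF168, KIAA2026, RSF1, ZPR1 and DDX21. These genes are named because their groups did not overlap, after their values were seen. Among so many genes some separate 6 from 6 cows by chance. The number expected was not computed, so the separation is no support for a difference. DDX21, an RNA helicase of ribosome production, had 147, 152 and 166 CPM in high milk cows, against 71.4, 118 and 146 CPM in low milk cows. RNF168, a ubiquitin ligase of the DNA damage response, had 43, 47.6 and 61.4 CPM in high milk cows, against 36.8, 40.4 and 41.5 CPM in low milk cows. Those below included TRAFD1 and SYTL1. SYTL1, a Rab27 effector in vesicle release, had 29.6, 31.6 and 33.2 CPM in high milk cows, against 37.2, 39.3 and 86.4 CPM in low milk cows, and its log2 fold change was -0.76 ± 0.22 (edgeR, unadjusted p = 0.00484), and -0.47 without supplemented cow 6.

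Next to ZFP36L2, the genes with the lowest p that were higher in high milk cows were USP12, CD83, MIOS, ELF2, NR4A2, PER1, RSBN1, NOXA1 and CLCF1; none passed the adjusted threshold. USP12, a deubiquitinase, had 82.2, 88.2 and 109 CPM in high milk cows, against 54.9, 74.7 and 91.5 CPM in low milk cows. It was called by DESeq2 at 0.41 ± 0.10 with an adjusted p of 0.0332, and did not pass in the other 24 alternatives run. Its groups overlapped through control cow 1. ELF2, a transcription factor of the ETS family, had 60.9, 78.3 and 96.6 CPM in high milk cows, against 46.5, 51.7 and 66.9 CPM in low milk cows. Its log2 fold change of 0.56 ± 0.15 stayed within 0.50 to 0.61 when each cow was left out. MIOS, a part of the GATOR2 complex that relays amino acid supply to mTORC1, had 33.9, 40.5 and 65.2 CPM in high milk cows, against 19.5, 32.4 and 33.9 CPM in low milk cows. The groups overlapped by a narrow margin, and control cow 5 held the highest value.

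CD83, a surface protein of mature dendritic cells and activated lymphocytes, had 29.3, 103 and 311 CPM in high milk cows, against 20.2, 23.9 and 62.3 CPM in low milk cows. Control cow 5 was highest; its log2 fold change was 2.1 ± 0.54 with all cows and 1.29 without control cow 5. The nuclear receptor NR4A2, induced early after stimulation, had 1.76, 8.58 and 11.4 CPM in high milk cows, against 1.97, 2.58 and 4.29 CPM in low milk cows. Supplemented cow 3 was the only high milk cow under the low milk median. Its log2 fold change was 1.58 ± 0.44 (edgeR, unadjusted p = 0.00372). The related NR4A3 had 0.813, 1.4 and 6.23 CPM in high milk cows, against 0.141, 0.447 and 0.859 CPM in low milk cows, with a log2 fold change of 2.7 ± 0.64 (unadjusted p = 0.00135). NR4A3 was at 6.23 CPM or less in every cow, highest in control cow 5, and its log2 fold change was 2.03 without that cow.

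The period genes PER1 and PER2, repressors of the circadian clock that glucocorticoids also induce, had higher medians in high milk cows. PER1 had 16.2, 20.7 and 23.1 CPM in high milk cows, against 5.22, 14.4 and 20.2 CPM in low milk cows, and PER2 had 1.35, 3.35 and 4.64 CPM in high milk cows, against 0.332, 1.31 and 1.91 CPM in low milk cows. Every high milk cow lay above the low milk median of PER1. The lowest low milk value of both genes was that of supplemented cow 6. The log2 fold changes were 0.80 ± 0.24 and 1.52 ± 0.44 (edgeR, unadjusted p = 0.00547 and 0.00471), and 0.53 and 1.2 without that cow. Of the circadian clock list, 15 of 18 genes tested were positive, where 53.9% of all genes were, with a median of 0.23 against 0.02 for all genes. Of the 18, 2 were positive with p below 0.05 before adjustment, as were 1.87% of all genes. Without supplemented cow 6, the median was 0.10 and 12 were positive. With control cow 5 left out as well, the median was 0.02 and 11 of 19 genes tested were positive. The hour of bleeding is not stated in the sources used.

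**Figure D2:**
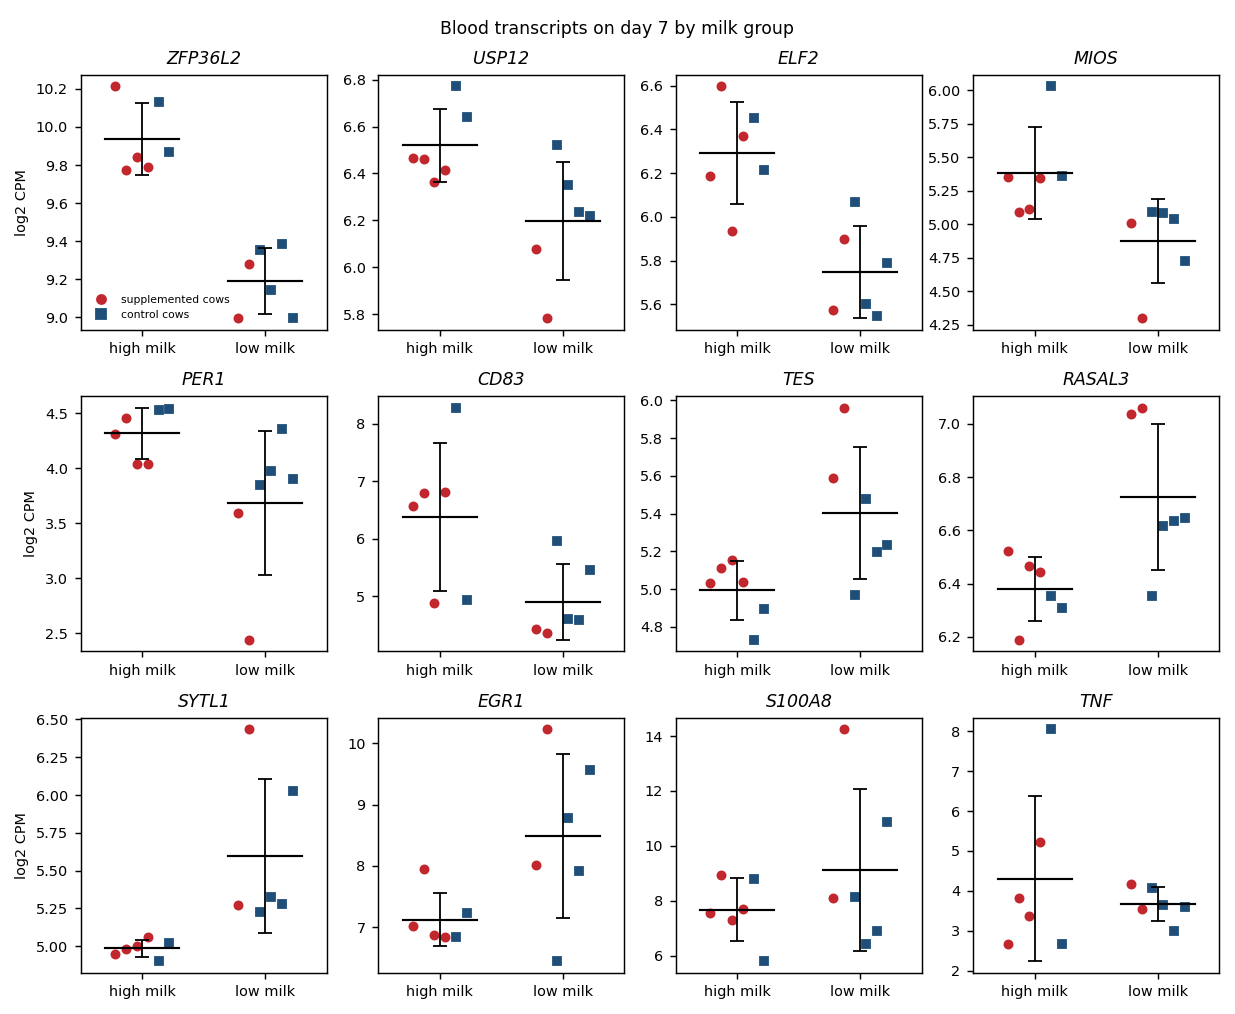
log2 CPM on day 7 of 12 genes in high milk cows (left) and low milk cows (right); circles are supplemented cows, squares are control cows, and bars are the mean ± SD of 6 cows. ZFP36L2 and SYTL1 do not overlap between the groups; S100A8 is highest in supplemented cow 6 and TNF in control cow 5.

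Among early response genes and NF-kB subunits the directions were mixed. Of the list, 24 of 41 were positive, with a median of 0.13 (-0.22 without control cow 5), and 4 were positive and 3 negative with p below 0.05 before adjustment, where 4.27% of all genes had such a p in either direction. EGR1, an immediate early transcription factor, was lower in high milk cows, at 114, 123 and 248 CPM in high milk cows, against 86.8, 349 and 1202 CPM in low milk cows. The groups overlapped: control cow 1, a low milk cow, had the lowest value of all, and control cow 3, also a low milk cow, lay below the highest high milk cow. The log2 fold change was -1.9 ± 0.53 (edgeR, unadjusted p = 0.00398). Supplemented cow 6 had the highest value, and the fold change without it was -1.27. In the same list NFKBID, an inhibitor of NF-kB, was at 1.63 ± 0.54, IER2 at -1.02 ± 0.37 and FOS at -1.34 ± 0.61. TNF, a main cytokine of inflammation, had 6.18, 12 and 265 CPM in high milk cows, against 7.76, 12.1 and 17.6 CPM in low milk cows; its log2 fold change of 1.86 ± 0.85 was -0.19 without control cow 5. ICAM1, which binds leukocyte integrins, was at 2.3 ± 1.0 and 0.25 without that cow.

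Genes with the lowest p that were lower in high milk cows included TES, RASAL3, TMEM199 and SYTL1, together with a set carried by supplemented cow 6. TES, a LIM domain protein of focal adhesions, had 26.4, 32.6 and 35.3 CPM in high milk cows, against 31.1, 40.9 and 62.1 CPM in low milk cows. Its log2 fold change was -0.56 ± 0.13 (edgeR, unadjusted p = 0.00119) and lay within -0.63 to -0.47 as each cow was left out. RASAL3, which switches off Ras in lymphocytes, had 72.8, 84.2 and 91.6 CPM in high milk cows, against 81.5, 99.6 and 133 CPM in low milk cows. No high milk cow lay above the low milk median of either gene. TMEM199, an assembly factor of the proton pump of acidic vesicles, had 8.9, 11.3 and 13.8 CPM in high milk cows, against 11.5, 14.2 and 20.1 CPM in low milk cows.

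For the neutrophil granule and antimicrobial genes the size of the difference depended on supplemented cow 6. Of 28 tested, 26 were negative and 16 of these had p below 0.05 before adjustment, where 2.4% of all genes were negative with such a p. Their median was -3.14 with all cows and -0.27 once supplemented cow 6 was left out, and 8 of the 28 passed the count minimum only with that cow, so the count over the members is no support. The median was -4.29 without control cow 5, and -1.15 with both cows left out, when 1 of 20 genes tested was positive. CATHL6, a cathelicidin, was at 169 CPM in supplemented cow 6 and 7.11 CPM in control cow 4, against at most 0.677 CPM in high milk cows. CD177, a surface protein of neutrophils, was at 103 and 3.92 CPM in these cows. LTF, the iron-binding lactoferrin of granules, was at 252 and 80.9 CPM, with at most 9.34 CPM in high milk cows. S100A8, a calgranulin abundant in neutrophils, had 55.4, 196 and 487 CPM in high milk cows, against 84.7, 278 and 19470.3 CPM in low milk cows, and its log2 fold change of -3.26 ± 1.28 was -0.84 without supplemented cow 6. The summed level of the neutrophil markers was 621 to 6044 CPM in high milk cows and 699 to 100527 CPM in low milk cows, so the ranges overlapped. With the neutrophil score as a covariate, edgeR called 0 genes (lowest adjusted p = 0.365), and 665 had p below 0.05 before adjustment. That score comes from the same counts, with S100A8 and CD177 among its markers. The part of neutrophil RNA in these differences was therefore not tested separately.

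Genes of growth hormone, insulin and glucocorticoid signalling gave no call. Of 12 tested genes of growth hormone, IGF and prolactin signalling, 4 were positive, with a median of -0.19 (0.21 without supplemented cow 6 and -0.82 without control cow 5), and 0 had p below 0.05 before adjustment. The transducer STAT5A had 185, 204 and 243 CPM in high milk cows, against 175, 222 and 246 CPM in low milk cows, a log2 fold change of -0.12 ± 0.12. The growth hormone receptor GHR was under the count minimum. Of 25 tested genes of insulin signalling and mTOR, 12 were positive, with a median of -0.005. Only 1 had p below 0.05 before adjustment, where 4.27% of all genes had such a p, so the count is near that share. That gene, RICTOR, a part of mTORC2, had 64.3, 86.9 and 116 CPM in high milk cows, against 53, 65.1 and 81.4 CPM in low milk cows. Its log2 fold change was 0.46 ± 0.17 (edgeR, unadjusted p = 0.0203). FKBP5, induced by glucocorticoids, had 82.9, 118 and 159 CPM in high milk cows, against 90, 109.6 and 227 CPM in low milk cows (-0.25 ± 0.28). Of 21 glucocorticoid responsive genes, 10 were positive, with a median of -2.26e-05; it was 0.28 with 12 positive without supplemented cow 6, and -0.41 with 5 positive without control cow 5. In this list 1 gene was positive and 2 were negative with p below 0.05 before adjustment, against 4.27% of all genes in either direction.

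Genes of fat and sugar metabolism gave no call, with log2 differences in both directions. ACSL1, which activates long-chain fatty acids, had 13.5, 16.7 and 21.6 CPM in high milk cows, against 17.6, 20.1 and 35.7 CPM in low milk cows, with a log2 fold change of -0.51 ± 0.17 (edgeR, unadjusted p = 0.0122). The highest value was that of supplemented cow 6, and the other low milk cows had 17.6 to 23.5 CPM. CPT1A, the gate of mitochondrial fatty acid oxidation, had 71.1, 172 and 317 CPM in high milk cows, against 89.9, 143 and 311 CPM in low milk cows (-0.12 ± 0.35). Of 35 genes of lipid uptake and oxidation, 13 were positive, with a median of -0.04. The glucose transporter SLC2A1 had 14.4, 25.8 and 33.8 CPM in high milk cows, against 8.2, 15.9 and 24.3 CPM in low milk cows, with a log2 fold change of 0.82 ± 0.29 (edgeR, unadjusted p = 0.0147). Supplemented cow 6 had its lowest value, and the other low milk cows had 14.1 to 24.3 CPM. Of the list of glycolysis and glucose uptake, which holds SLC2A1, 5 of 24 genes were positive, with a median of -0.28, which was -0.01 without supplemented cow 6 and -0.65 without control cow 5. The glycolytic enzyme PKM was at 7805 CPM in supplemented cow 6, and between 386 and 1226 CPM in high milk cows.

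Antioxidant genes gave no call. SOD1, the cytosolic copper and zinc superoxide dismutase, had 132, 155 and 181 CPM in high milk cows, against 93.5, 119 and 155 CPM in low milk cows, with a log2 fold change of 0.44 ± 0.16 (edgeR, unadjusted p = 0.0163) and 0.34 to 0.54 as each cow was left out. The mitochondrial enzyme SOD2 had 35.8, 113 and 347 CPM in high milk cows, against 45.3, 90.1 and 4932 CPM in low milk cows, with supplemented cow 6 highest. The selenoenzyme GPX1 had 446, 568 and 871 CPM in high milk cows, against 557, 632 and 1563 CPM in low milk cows (-0.41 ± 0.29). Supplemented cow 6 was again highest, and the other low milk cows had 557 to 818 CPM. Among antioxidant genes and NRF2 targets 12 of 35 had a positive fold change, with a median of -0.14 (-0.03 without supplemented cow 6 and -0.47 without control cow 5), and 6 of 15 selenoproteins were positive, with a median of -0.12 (-0.05 without supplemented cow 6 and -0.15 without control cow 5).

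Several list medians depended on supplemented cow 6. All 76 tested ribosomal protein genes were positive, at a median of 0.17, 0 of them with p below 0.05 before adjustment; without supplemented cow 6, 11 were, at a median of -0.06. The phagocyte NADPH oxidase, which makes superoxide, had 0 of 8 positive at a median of -0.35, which was 0.02 without that cow and -0.43 without control cow 5. Leukocyte adhesion and migration had 3 of 30 positive at -0.48, with -0.13 without supplemented cow 6 and -0.90 without control cow 5. Cell cycle genes were mostly lower: 6 of 38 were positive, where 53.9% of all genes were. Their median was -0.22, with -0.27 without supplemented cow 6, -0.16 without control cow 5 (14 positive) and -0.12 without control cow 3. The list score (mean log2 CPM) was highest in control cows 2 and 3, both low milk cows, at 4.78 and 4.91. It was 3.95 to 4.38 in the other low milk cows and 3.99 to 4.54 in high milk cows. PLK1, a kinase of mitosis, had 16.1, 20.1 and 24 CPM in high milk cows, against 20.1, 24.7 and 56.5 CPM in low milk cows (-0.66 ± 0.26, and -0.25 without supplemented cow 6). The nuclear genes of the respiratory chain were at a median of -0.03, with 30 of 73 positive. The interferon list had a median of -0.05 (0.28 without supplemented cow 6 and -0.53 without control cow 5), and MHC class II presentation 0.13 (-0.08 without supplemented cow 6 and 0.31 without control cow 5).

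**Figure D3:**
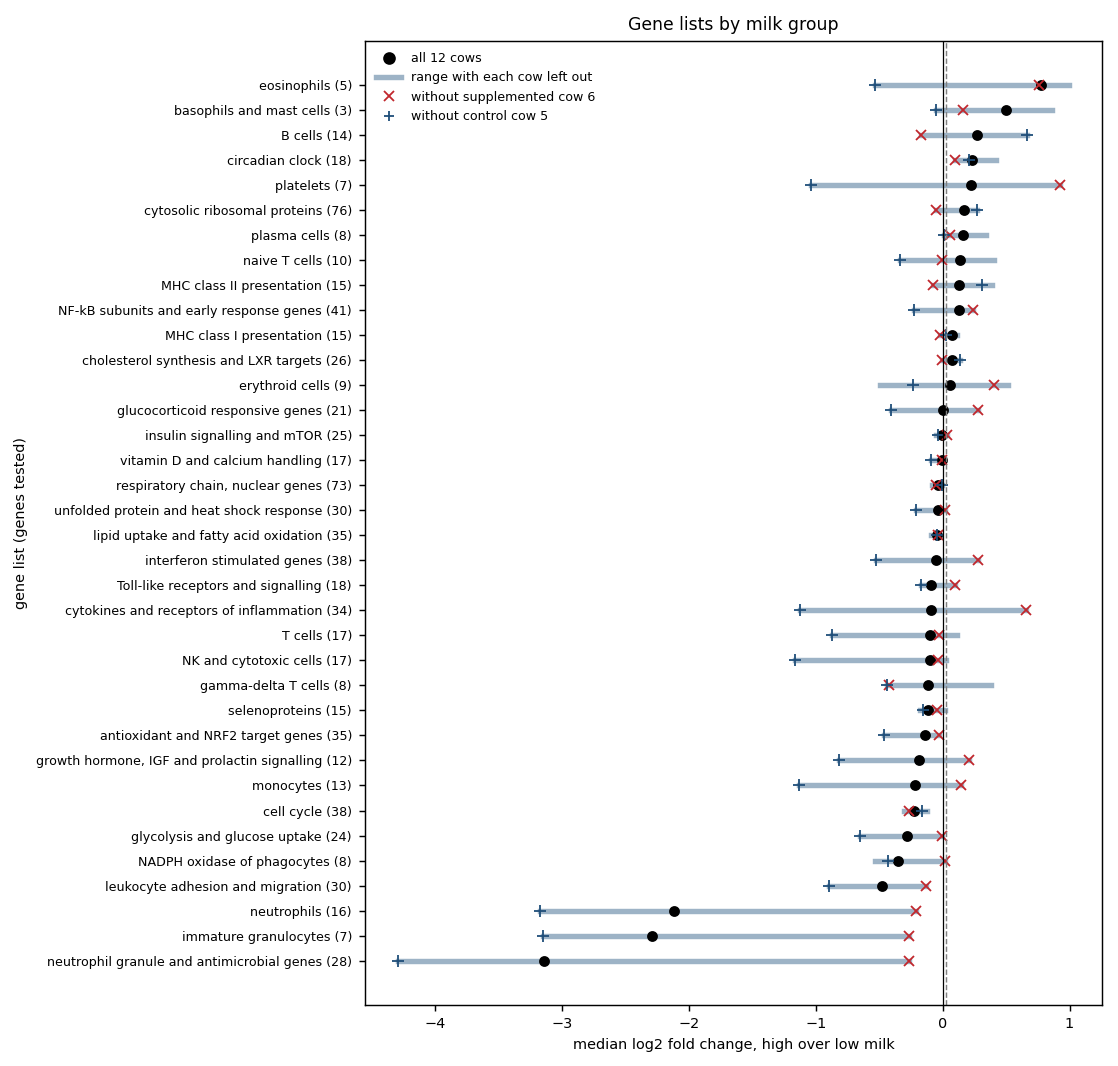
Median log2 fold change of high over low milk cows for each gene list (genes tested in brackets); dots are all 12 cows, grey bars the range with each cow left out, red crosses without supplemented cow 6 and blue plus signs without control cow 5, and the dashed line is the median of all genes, 0.02. The neutrophil granule list lies at -3.14 with all cows and at -0.27 without supplemented cow 6.

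The blood cell marker lists overlapped between the groups in summed level. B cell markers were at 1101 to 7009 CPM in high milk cows and 996 to 6819 CPM in low milk cows, T cell markers at 659 to 3179 CPM in high milk cows and 789.9 to 2232 CPM in low milk cows, NK and cytotoxic markers at 349.7 to 1199 CPM in high milk cows and 477 to 1395 CPM in low milk cows and monocyte markers at 1038 to 9553 CPM in high milk cows and 1847 to 8082 CPM in low milk cows. The median log2 fold changes were 0.27 for B cells, -0.10 for T cells, -0.10 for NK and cytotoxic cells and -0.22 for monocytes. Without supplemented cow 6, in the same order, they were -0.17, -0.03, -0.04 and 0.14, with 0 of 14 B cell genes positive against 11 of 14 with all cows. Without control cow 5 they were 0.66, -0.87, -1.16 and -1.13. The eosinophil list, of 5 genes tested, had 4 positive at a median of 0.78, and 1 positive at -0.53 without control cow 5. Its negative member, ADGRE1, was at 3247 CPM in supplemented cow 6 and had p below 0.05 before adjustment. IL5RA, the receptor of the eosinophil growth factor IL-5, had 3.66, 6.66 and 9.55 CPM in high milk cows, against 1.71, 3.25 and 4.73 CPM in low milk cows, with a log2 fold change of 1.01 ± 0.35 (edgeR, unadjusted p = 0.0149), and 1.1 without control cow 5.

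Milk was also taken as a continuous value, as the log2 change per 10 units. With edgeR 0 of 11990 genes passed (0%), no adjusted p was below 0.9998, and 127 had p below 0.05 before adjustment (1.06%): 91 with a positive slope (0.759%) and 36 with a negative one (0.3%). limma-voom and DESeq2 called 0, with 147 and 289 genes with p below 0.05 before adjustment. When the 2 cows with milk farthest from the median, supplemented cow 3 at 45 and control cow 6 at 42, were left out, 1 gene passed: TAC3, a tachykinin, with a slope of 4.78 and an adjusted p of 0.00437, and 1146 genes had p below 0.05 before adjustment. Both the fold change and the slope had p below 0.05 before adjustment for 63 genes, all with the same sign, the 2 fits sharing the same cows and milk values.

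The lowest p of a positive slope among named genes belonged to NSG1, an endosomal protein best known in neurons, with a slope of 1.05 ± 0.29 (edgeR, unadjusted p = 0.00382). It was at 29 CPM in supplemented cow 3 and 16.2 CPM in control cow 6, the 2 cows with the most milk, and at 6.18 to 11.5 CPM in the others. Its slope was 0.19 when those cows were left out. PACC1, a proton-activated chloride channel, had a slope of 0.83 ± 0.26 and 16.3, 26.7 and 42.3 CPM in high milk cows, against 9.61, 21.8 and 26.5 CPM in low milk cows. IL2RB, a receptor chain for IL-2 and IL-15 on T and NK cells, had a slope of -0.59 ± 0.19, and SPC24, a kinetochore protein, -0.73 ± 0.24. NIBAN3, a gene of B cells, had 25.9, 35.9 and 52.7 CPM in high milk cows, against 41.3, 58.2 and 77.6 CPM in low milk cows, with a slope of -0.90 ± 0.30 and a log2 fold change between groups of -0.79 ± 0.24.

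**Figure D4:**
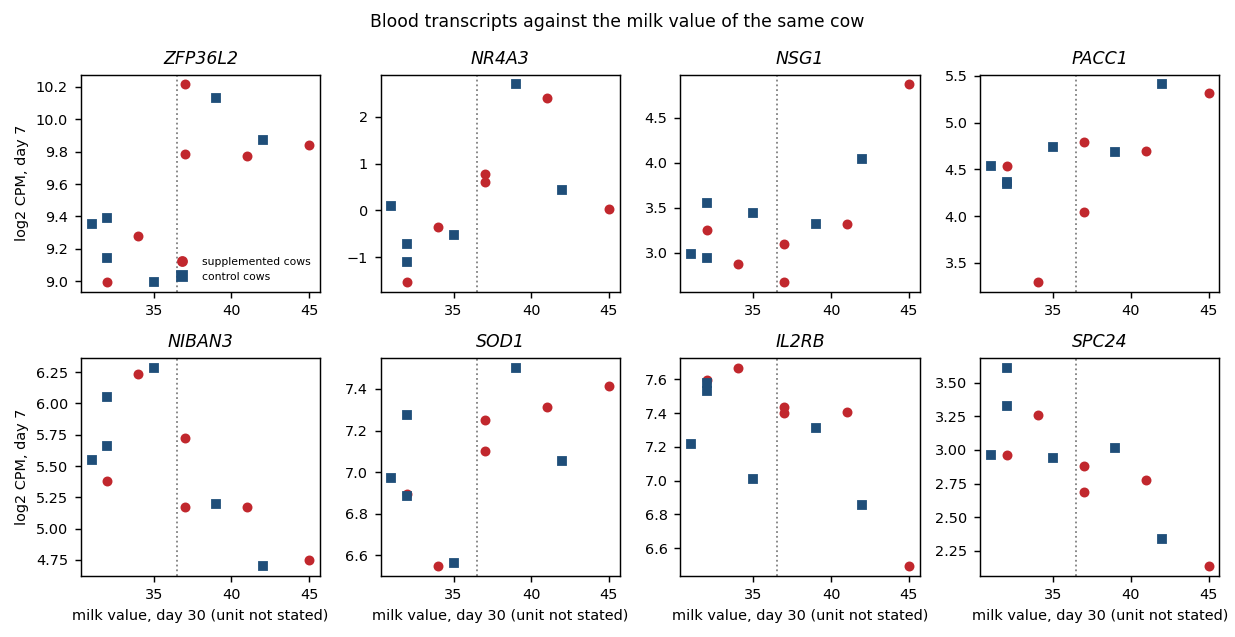
log2 CPM on day 7 of 8 genes against the milk value at 30 days after calving; circles are supplemented cows, squares are control cows, and the dotted line separates high from low milk. NSG1 is highest in the 2 cows with the most milk, while ZFP36L2 differs between the sides of the line more than along it.

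Whether the slope differed between supplemented and control cows was tested with an interaction term. By edgeR 0 genes passed (0%), with a lowest adjusted p of 0.563, and 95 had p below 0.05 before adjustment (0.792%), 37 positive (0.309%) and 58 negative (0.484%). limma-voom gave 0 and 81. Without supplemented cow 4, 1 gene passed (adjusted p = 0.0135), ULBP13, a ligand of the NK receptor NKG2D, which had 232 counts in supplemented cow 6, 106 in supplemented cow 4, and at most 11 in the other supplemented cows. Among controls it had 53 counts in control cow 6, the control with the most milk, and 2 to 5 in the others.

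5 oxidative measures were deposited for the same cows on 4 days: glutathione peroxidase activity (GSHpx), superoxide dismutase (SOD), thiobarbituric acid reactive substances (TBARS, a readout of lipid peroxidation), and 2 measures the files name AC and OSi. Their units are not stated. Of the 20 measure and day pairs, 0 passed an exact two-sided permutation test of the difference between milk groups after Benjamini-Hochberg adjustment (lowest adjusted p = 0.832), and 0 had p below 0.05 before adjustment. Treatment, spread unevenly over the milk groups, was not a term in this test. On day +7 GSHpx was 77.8 ± 9.69 in high milk cows and 88 ± 23.4 in low milk cows and TBARS 0.776 ± 0.131 in high milk cows and 0.745 ± 0.215 in low milk cows (SD, n = 6 each). The lowest p of all was that of TBARS on day +14, at 0.931 ± 0.278 in high milk cows and 0.737 ± 0.0849 in low milk cows (SD, n = 6 each; exact permutation p = 0.149).

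Over the 20 correlations with milk, TBARS on day +14 had Pearson's r = 0.587 over 12 cows (permutation p = 0.0428, adjusted p = 0.584) and Spearman's rho = 0.417 (permutation p = 0.176). It was 0.738 without the 2 cows farthest from the median milk, 0.762 within supplemented cows and 0.0123 within control cows. GSHpx on day +4 had r = 0.252 over all cows, -0.0984 within supplemented cows and 0.908 within control cows (exact permutation p = 0.0111 in the controls). That was the lowest p among all correlations within a treatment, each over 6 cows. The p-values within treatments were not adjusted for the number of tests. OSi on day +7 had r = 0.288 over all cows, 0.709 within supplemented cows and 0.717 within control cows (exact permutation p = 0.119 and 0.1 within treatments). AC on day +7 had r = -0.11, -0.487 and -0.442 in the same order (exact permutation p = 0.317 and 0.386 within treatments). Because OSi is TBARS divided by AC, the OSi and AC correlations are not independent results. Treatment was not a term in the correlations over all cows. The difference between treatments was not tested.

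**Figure D5:**
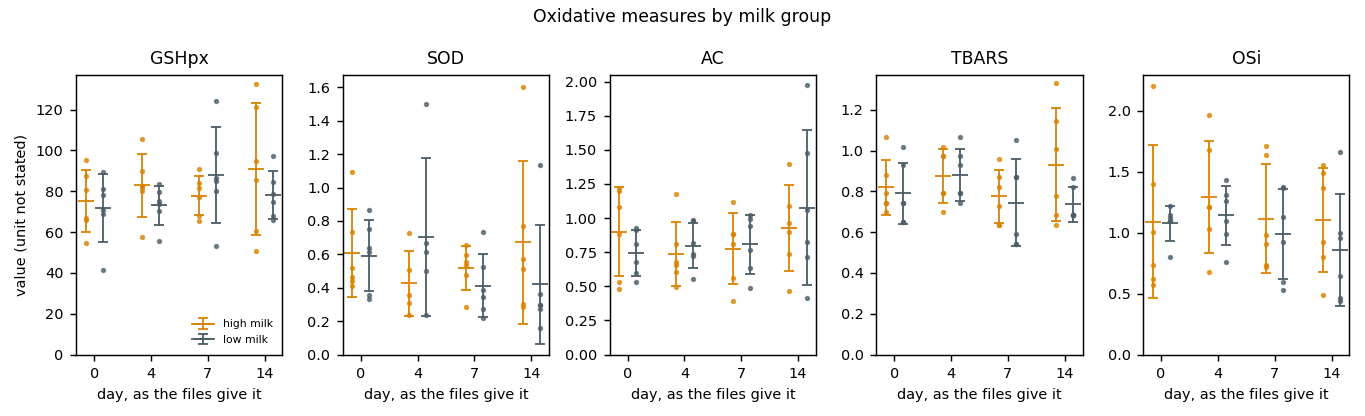
GSHpx, SOD, AC, TBARS and OSi in high milk cows (orange, left of each pair) and low milk cows (grey, right), on days 0, 4, 7 and 14 as the files give them; dots are cows and bars the mean ± SD. The groups overlap in every panel and on every day.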

How the data were processed

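Blood RNA-seq of 12 Holstein cows was analysed from the raw gene counts the authors deposited. Per the submitters' processing notes, FastQC, STAR, featureCounts and DESeq2 were used with the ARS-UCD1.2 build; their versions, the gene annotation and the strand setting are not stated in the sources used, so genes that overlap on opposite strands cannot be told apart. Per the labels' protocols, jugular blood was kept in RNAlater, haemoglobin RNA was depleted, and libraries were sequenced as paired reads of 150 bases. The sequencing summary the authors deposited gives, per the file headers, clusters per library as a count, the yield as a signal in megabases, the percent of bases above the quality threshold, and mean base quality as a score. Milk and the oxidative measures were deposited as a score with no stated unit.

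Genes with a mean count of at least 10 were tested in edgeR 4.0.16 (TMM, robust quasi-likelihood test, two-sided, Benjamini-Hochberg over all genes, threshold 0.05), with treatment in the model, for milk group, for the slope on milk and for the slope by treatment interaction. CPM are counts scaled to TMM-adjusted library size; log2 CPM had a prior count of 2. limma 3.58.1 (voom), DESeq2 1.42.0, other scalings and filters, and leaving out each cow were alternatives. The tests were checked on simulated counts. Lists were matched by symbol: 817 of 878 names were found. Genes named are those with the lowest p in each direction at a mean of at least 5 CPM, a fixed set of 27 genes, and the 2 genes of lowest p in each list; a few genes under this rule are not reported here. Each cow is a separate animal. Library counts of every pair of cows differed beyond sampling noise. Members and lists were chosen with earlier results of these data known. The deposited DESeq2 table compares treatments and was not used. Single values were tested with exact permutation tests, without treatment as a term, apart from an alternative that permuted the oxidative measures within treatment groups.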

Additional observations from a re-analysis of the deposited data

Results flagged for a closer look

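In 380 groups of 6 cows, or of 5 where a value was missing, 1 cow stood far from the others of its milk group in 30 groups, where chance alone gives about 1 in 20 groups. The groups share cows and genes and are not independent. Supplemented cow 6 was that cow in 13 groups, control cow 5 in 2 and other cows in 15. Values of genes and of gene lists are log2 CPM; the other measures are in the unit of the files.

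In supplemented cow 6, the following stood apart among low milk cows. PACC1 was at 3.3, lowest, with the other low milk cows at 4.34 to 4.74. GPX1 was at 10.61, highest, with the other low milk cows at 9.12 to 9.68. PLIN2 was at 7.69, highest, with the other low milk cows at 5.68 to 6.11. ORAI1 was at 6.71, highest, with the other low milk cows at 4.37 to 4.99. CAMP was at 3.4, highest, with the other low milk cows at -2.27 to -1.29. BOLA-DMB was at 7.67, lowest, with the other low milk cows at 8.64 to 9.06. ITGAM was at 8.55, highest, with the other low milk cows at 7.09 to 7.52. RAC2 was at 10.92, highest, with the other low milk cows at 8.85 to 9.11. NDUFB1 was at 5.23, highest, with the other low milk cows at 3.95 to 4.27. The score of the list MHC class II presentation was at 6.39, lowest, with the other low milk cows at 7.48 to 7.99. The score of the list circadian clock was at 3.44, lowest, with the other low milk cows at 4.18 to 4.53. The score of the list NADPH oxidase of phagocytes was at 9.14, highest, with the other low milk cows at 7.56 to 8.0. PC2 was at 61.9, highest, with the other low milk cows at -13.65 to 4.59.

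In the other cows, MIOS was 6.03 in control cow 5, highest among high milk cows, with the others at 5.09 to 5.36. NR4A2 was 0.98 in supplemented cow 3, lowest among high milk cows, with the others at 2.73 to 3.54. NOXA1 was 3.85 in control cow 6, highest among high milk cows, with the others at 3.04 to 3.22. CATHL6 was -0.18 in supplemented cow 3, highest among high milk cows, with the others at -2.27 to -1.57. CD177 was -0.18 in supplemented cow 3, highest among high milk cows, with the others at -2.27 to -1.49. CATHL3 was -0.18 in supplemented cow 3, highest among high milk cows, with the others at -2.27 to -1.49. EGR1 was 7.95 in supplemented cow 2, highest among high milk cows, with the others at 6.83 to 7.23. THY1 was -2.27 in control cow 6, lowest among high milk cows, with the others at -0.91 to -0.18. CIT was 1.4 in supplemented cow 3, lowest among high milk cows, with the others at 2.27 to 2.41. CAMP was -1.54 in supplemented cow 3, highest among high milk cows, with the others all at -2.27. A log2 CPM of -2.27 stands for a count of 0. In high milk cows CATHL6, CD177, CATHL3, THY1 and CAMP were at 0.677 CPM or less, so their differences there are at the floor of detection. CCL20 was 4.07 in control cow 5, highest among high milk cows, with the others at -2.27 to -0.34. ERAP1 was 5.78 in supplemented cow 2, lowest among high milk cows, with the others at 6.75 to 7.03. ATF4 was 8.72 in supplemented cow 3, lowest among high milk cows, with the others at 9.13 to 9.31. The score of the list immature granulocytes was 0.76 in control cow 6, lowest among high milk cows, with the others at 1.88 to 2.27. OSi, day 0 was 0.80 in control cow 1, lowest among low milk cows, with the others at 1.09 to 1.22. SOD, day +14 was 1.6 in supplemented cow 2, highest among high milk cows, with the others at 0.285 to 0.768. SOD, day +14 was 1.14 in control cow 1, highest among low milk cows, with the others at 0.16 to 0.363.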

How the results depend on the processing

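DESeq2 called 5 genes between milk groups, the slope without the 2 cows farthest from the median milk called 1, and the interaction ranged from 0 to 1 call as each cow was left out; the other counts of genes called stayed at 0 under the alternatives run. The number of genes with p below 0.05 before adjustment moved with single cows. Between milk groups it was 1673 without control cow 5, 752 without supplemented cow 4, 331 without supplemented cow 1, 275 without supplemented cow 5 and 237 without supplemented cow 6, against 512 with all cows, and 170 without the 3 cows nearest the milk threshold (2 tie at 37). With the neutrophil score as a covariate it was 665. For the interaction it was 1478 without control cow 6 and 455 without supplemented cow 4, against 95. Of 123 named gene values, 94 kept their sign under all alternatives run and 29 did not, with 58 sign changes among 3020 values. The oxidative and library measures stayed at 0 calls under the alternatives run. In limma-voom, the sign turned to log2 values of -0.68 for SOCS2, 0.0357 for BLK and -0.0113 for TUBB1. Without treatment in the model, the sign turned to log2 values of 0.0609 for CPT1A. With supplemented cow 6 and control cow 5 both left out (chosen after seeing the data), the sign turned to log2 values of -1.21 for SOCS2, -0.0334 for PPARA, 0.38 for DUSP1, -0.52 for TNF, 0.0406 for PLIN2, -0.0147 for BOLA-DMB, 0.0321 for CYBA, -0.0102 for IRAK2, -0.023 for RPS12, -0.83 for PRDM1, -0.47 for GATA2 and -0.52 for TUBB1. The list medians there were -1.15 for neutrophil granule and antimicrobial genes, -0.0571 for MHC class I presentation, -0.19 for plasma cells, -0.61 for naive T cells, -1.17 for NK and cytotoxic cells, -0.87 for eosinophils and -0.47 for basophils and mast cells. Without the 3 cows nearest the threshold, the sign turned to log2 values of 0.15 for IGF1R, 0.32 for INSR, 0.19 for CPT1A, 0.50 for PDK4, 0.12 for FKBP5, 0.0797 for DUSP1 and 0.00338 for CD2. With base quality as a covariate, the sign turned to log2 values of -0.0185 for SOCS2. With the neutrophil score as a covariate, the sign turned to log2 values of 0.13 for IGF1R, 0.0101 for STAT5B, 0.10 for CPT1A, 0.58 for DUSP1, 0.0536 for SOD2, 0.63 for GPX3, 0.0781 for BCL6, -0.0559 for BLNK and 0.0109 for CLEC12A. Without the 2 cows farthest from the median milk, the sign turned to log2 values of -0.60 for CACNA1B (slope). With each cow left out in turn, log2 fold changes spanned -0.0247 to 0.51 for ANGPTL4, -2.85 to 0.35 for BCL6, -0.66 to 0.24 for BLK, -0.0248 to 0.79 for BLNK, -1.96 to 0.20 for CLEC12A, -0.31 to 0.10 for CPT1A, -1.24 to 0.90 for DUSP1, -0.0538 to 1.41 for GATA2, -2.92 to 1.1 for GPX3, -1.14 to 0.22 for IGF1R and -0.12 to 1.97 for IL10. They spanned -0.79 to 3.22 for IL1B, -0.27 to 0.0847 for INSR, -0.91 to 0.16 for PDK4, -0.77 to 0.99 for PRDM1, -0.96 to 0.39 for SOCS2, -3.13 to 0.90 for SOD2, -0.55 to 0.0527 for STAT5B, -0.19 to 2.28 for TNF and -0.71 to 1.36 for TUBB1. List medians spanned -1.16 to 0.0243 for NK and cytotoxic cells, -0.53 to 0.99 for eosinophils, -3.15 to -0.27 for immature granulocytes, -4.29 to -0.27 for neutrophil granule and antimicrobial genes and -1.04 to 0.92 for platelets. The cause of these differences was not tested. No paired analysis was possible because each cow carries a number of her own in the labels and nothing pairs cows between milk groups. With 6 cows in each group and a median standard error of 0.27 in log2 units, cow number and depth limit what can be called, most of all for low counts. A p that misses the threshold does not show that the groups are alike.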
